A study of Zea mays with 24 samples.

Results

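Plant seeds are fed with sucrose, which has to leave the maternal tissue, be cleaved or carried across membranes, and be used by endosperm and embryo. The genes described here act at those steps in the maize seed: mn1 (Zm00001d003776), a cell wall invertase, SWEET4c (Zm00001d015912), a sugar transporter of the SWEET family, SUT1 (Zm00001d027854), a sucrose transporter, and sh1 (Zm00001d045042) and sus1 (Zm00001d047253), both sucrose synthases. They are 5 of the 41768 features counted in each library. They were chosen by identifier and not by a rule on their counts, though with earlier results of these data known. The names come with that choice: the count files hold identifiers alone, and the gene table at hand, made for another assembly, pairs none of them with a name. All 5 passed the filter on low counts.

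Cell wall invertase splits sucrose into glucose and fructose outside the cell, and in maize the loss of mn1 is known for small, miniature kernels. SWEET4c is known as a hexose carrier of the transfer cells at the base of the endosperm, where it works downstream of the invertase. SUT1 couples sucrose movement to protons and is best known from phloem loading in leaves. Sucrose synthase cleaves sucrose inside the cell to UDP-glucose and fructose, and sh1, named for the shrunken kernel of its mutant, is the form best known from starch-filling endosperm.

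RNA came from 6 dissected tissues of wild type B73 maize seeds, with 4 libraries each: EAS, the endosperm adjacent to the scutellum, SAL, the scutellar aleurone layer, AS, the apical scutellum, Emb, the embryo, Per, the maternal pericarp, and End, the endosperm. All plants were untreated greenhouse plants, kept at 24 °C in the day and 19 °C in the night, with light for 16 h. The label of SAL replicate 1 leaves out the name of the line, and no label gives the age of the seeds. The labels do not say whether End samples held EAS or SAL tissue, whether Emb samples held AS tissue, or whether they included the base of the endosperm. Replicates 1 to 4 share harvest days across tissues (27 April, 1 May, 4 May and 18 May), except that EAS replicate 3 is labelled 5 April and SAL replicate 4 has no date. The label of Emb replicate 1 gives another year. Tissue identity was not checked against marker genes, since no other identifier could be paired with a name.

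Reads counted in genes ranged from 37.6 M to 61.1 M per library, apart from SAL replicate 2 with 15.1 M. Levels below are CPM (edgeR's cpm, on TMM-scaled library sizes), as mean ± SD over 4 libraries. CPM are not divided by transcript length, so a gene's level is compared between tissues and not with that of another gene. Fold changes are those of edgeR's quasi-likelihood test fitted to the 24 libraries, written log2FC for the log2 of the first-named tissue over the other. The SE beside each is approximate: the log2FC's size over the root of F. Each gene's spread was estimated over all tissues together, so the SE and p of a pair also carry the spread of the other tissues. A gene was called where the p adjusted over all 26543 tested features was under 0.05 and the fitted fold was at least 2.

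EAS replicate 3 stood apart from the other EAS libraries in 2 of the 5 genes. Of 12368 features with a mean of at least 10 CPM in EAS, 43 (0.348%) lay at least 4-fold lower in this library than in each of the other 3, after 0.1 CPM was added. mn1 and SUT1 were among the 43. Of these features, 33 had their highest tissue mean in SAL and 10 in Per. AS replicate 2 had 13 such low features, none of them among the 5 genes, and every other library had at most 1. Called EAS results on mn1, SUT1 and sus1 are therefore given with and without EAS replicate 3.

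**Figure D1:**
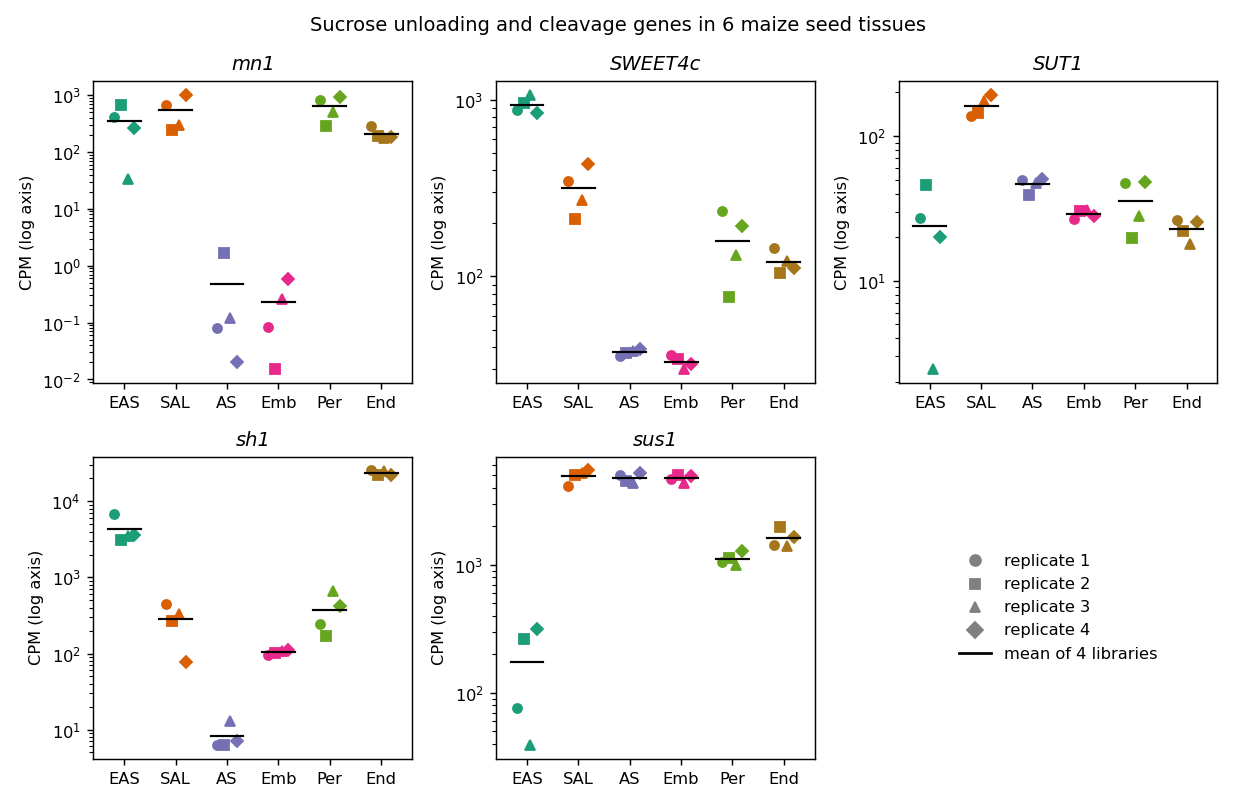
CPM of the 5 genes (vertical log axes, a scale per panel) in the 6 tissues, with a marker per replicate and a line at the mean of 4 libraries. SWEET4c peaks in EAS, SUT1 in SAL and sh1 in End, sus1 is lowest in EAS, and mn1 is below 2 CPM in every AS and Emb library.

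mn1, the cell wall invertase, was present in the endosperm tissues and the pericarp and close to absent in both embryo tissues. It had 416, 666, 33.5 and 262 CPM in EAS replicates 1 to 4, and 674, 247, 298 and 1016 CPM in SAL. Per had 836, 291, 503 and 916 CPM, and End had 289, 193, 176 and 185 CPM. The ranges of EAS and SAL overlapped that of End, and the lowest Per library, at 291 CPM, was level with the highest End library, at 289 CPM.

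In AS, mn1 was counted with 4, 85, 6 and 1 reads, and in Emb with 4, 1, 14 and 28 reads. That is 0.478 ± 0.809 CPM in AS and 0.233 ± 0.252 CPM in Emb, and 85 of the 96 AS reads lay in replicate 2. All AS and Emb libraries lay below all libraries of the other tissues. In dissected tissue such as this, fewer cells of a type and less RNA per cell cannot be told apart. The difference AS vs Emb was not called (log2FC 1.13 with SE 1.42, edgeR’s adjusted p = 0.572).

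mn1 was called lower in AS than in End (log2FC -8.77 with SE 0.96, edgeR’s adjusted p = 1.72e-08) and in Per (-10.36, SE 1.00). It was likewise lower in Emb than in End (log2FC -9.90 with SE 1.04, edgeR’s adjusted p = 8.52e-09) and in Per (-11.49, SE 1.07). EAS stood above AS by 9.47 and above Emb by 10.61 on the log2 scale, and SAL by 10.17 and 11.31. Without EAS replicate 3 the EAS values were 9.85 and 10.99. With so few embryo reads these sizes hang on single libraries. Without AS replicate 2 the values were 12.13 for EAS vs AS, 12.83 for SAL vs AS, -13.01 for AS vs Per and -11.42 for AS vs End. Without Emb replicate 4 they were 11.54 for EAS vs Emb, 12.24 for SAL vs Emb, -12.43 for Emb vs Per and -10.84 for Emb vs End.

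Among the 4 tissues that carry mn1, the order by mean was Per, SAL, EAS and End, and no neighbours in it were called. SAL vs Per gave a log2 fold change of -0.19 (SE 0.62, edgeR’s adjusted p = 0.8002), EAS vs SAL gave -0.70 (SE 0.63, edgeR’s adjusted p = 0.311) and EAS vs End gave 0.71 (SE 0.63, edgeR’s adjusted p = 0.339). Without EAS replicate 3 the last 2 were -0.32 and 1.09, and neither was called. EAS vs Per was not called either (-0.88, SE 0.63, edgeR’s adjusted p = 0.195), and was -0.50 without that library. Per averaged 636 ± 292 CPM and End 211 ± 52.7 CPM, a called difference (log2FC 1.59 with SE 0.64, edgeR’s adjusted p = 0.0261). SAL averaged 559 ± 359 CPM and was called over End as well (log2FC 1.41 with SE 0.64, edgeR’s adjusted p = 0.0494). Both calls were fragile. The first was lost with DESeq2 (1.58) and when Per replicate 1 or 4 or End replicate 2, 3 or 4 was left out. The second was lost with DESeq2 (1.35), RLE scaling (1.35), no low-count filter (1.40) and the replicate number as a block (1.29), and without SAL replicate 1 or 4 or any one End replicate.

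SWEET4c had its highest level in EAS, the endosperm face that borders the scutellum. EAS replicates 1 to 4 had 879, 954, 1065 and 845 CPM, and SAL had 347, 211, 269 and 434 CPM. AS had 35.7, 37.0, 37.8 and 38.9 CPM, and Emb had 35.8, 34.2, 29.8 and 32.1 CPM. Per had 235, 76.2, 132 and 193 CPM, and End had 144, 105, 122 and 112 CPM. Every EAS library lay above every library of the other tissues, and the AS and Emb libraries lay below all the rest.

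EAS, at 936 ± 97.5 CPM, was called over SAL at 315 ± 96.9 CPM, 2.97-fold (log2FC 1.57 with SE 0.23, edgeR’s adjusted p = 2.25e-06). It was called over End at 121 ± 17.1 CPM, 7.74-fold (log2FC 2.95 with SE 0.25, edgeR’s adjusted p = 8.44e-10), and over Per at 159 ± 69.8 CPM, 5.88-fold. Over the embryo tissues the folds were 25.1 for EAS vs AS and 28.4 for EAS vs Emb. SAL was in turn called over End (log2FC 1.38 with SE 0.23), and over AS (3.08) and Emb (3.26).

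Lower in the order, SAL vs Per came to a log2 fold change of 0.99 (SE 0.23, edgeR’s adjusted p = 0.000649), which fell short of 2-fold. It reached 1.01 with the replicate number as a block, and lay above 1 without SAL replicate 2 (1.14) or 3 (1.06) and without Per replicate 1 (1.24) or 4 (1.09). Per vs End was not called (0.40, SE 0.23, edgeR’s adjusted p = 0.116), and the ranges overlapped. AS, at 37.3 ± 1.38 CPM, and Emb, at 33.0 ± 2.62 CPM, were not told apart (log2FC 0.18 with SE 0.23, edgeR’s adjusted p = 0.587). Both were called lower than End, by a log2 fold change of -1.69 in AS and -1.87 in Emb, and lower than Per, by -2.09 and -2.27.

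SUT1 was highest in SAL, the aleurone layer over the scutellum. Its level there was 137, 144, 176 and 193 CPM, while EAS had 27.0, 45.8, 2.44 and 20.0 CPM. AS had 50.1, 39.1, 47.3 and 50.1 CPM, and Emb had 26.6, 30.1, 30.8 and 27.9 CPM. Per had 47.7, 19.8, 27.9 and 47.9 CPM, and End had 26.1, 22.0, 18.1 and 25.3 CPM. Every SAL library lay above every other library. Below SAL, the EAS and Per ranges overlapped those of all the other tissues, while AS, Emb and End did not overlap each other.

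SAL, at 162 ± 26.5 CPM, was called over all of the other tissues. It stood 7.09-fold over End at 22.9 ± 3.66 CPM (log2FC 2.83 with SE 0.45, edgeR’s adjusted p = 5.41e-06). It stood 3.48-fold over AS (1.80, SE 0.42), 5.63-fold over Emb (2.49, SE 0.44) and 4.54-fold over Per (2.18, SE 0.43). EAS, at 23.8 ± 17.9 CPM, was 6.79-fold lower than SAL (log2FC -2.76 with SE 0.44, edgeR’s adjusted p = 5.85e-06). Without EAS replicate 3 the value was -2.39 and the EAS mean 31.0 CPM.

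After SAL, the order of the SUT1 means was AS, Per, Emb, EAS and End, and no neighbours in it were called. AS vs Per gave 0.38 (SE 0.42), Emb vs Per -0.31 (SE 0.42), EAS vs Emb -0.27 (SE 0.42) and EAS vs End 0.06 (SE 0.43, edgeR’s adjusted p = 0.921). Without EAS replicate 3 the last 2 were 0.10 and 0.44, so EAS vs Emb changed sign, and neither was called. AS, at 46.6 ± 5.20 CPM, was called over End by a log2 fold change of 1.03 (SE 0.43, edgeR’s adjusted p = 0.0307). That call was lost with RLE scaling (0.96), with DESeq2 (0.96) and without AS replicate 1 or 4 or End replicate 2 or 3. The AS and End libraries did not overlap, and a fit of these 2 tissues alone kept the call, just at 2-fold (1.00, SE 0.12, edgeR’s adjusted p = 1.35e-05). AS vs Emb (0.69, SE 0.42, edgeR’s adjusted p = 0.206) and Emb vs End (0.33, SE 0.42) were not called, though their libraries did not overlap. Fits of the 2 tissues alone gave 0.67 (SE 0.08, edgeR’s adjusted p = 0.000129) and 0.29 (SE 0.11, edgeR’s adjusted p = 0.0234), both short of 2-fold. EAS vs AS came to -0.97 (SE 0.42, edgeR’s adjusted p = 0.0398), short of 2-fold. It reached -1.04 with the replicate number as a block, -1.497 without EAS replicate 2 and -1.04 without AS replicate 2, and it was -0.59 without EAS replicate 3. EAS vs Per was not called (-0.58, SE 0.42), but was without EAS replicate 2 (-1.11).

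**Figure D2:**
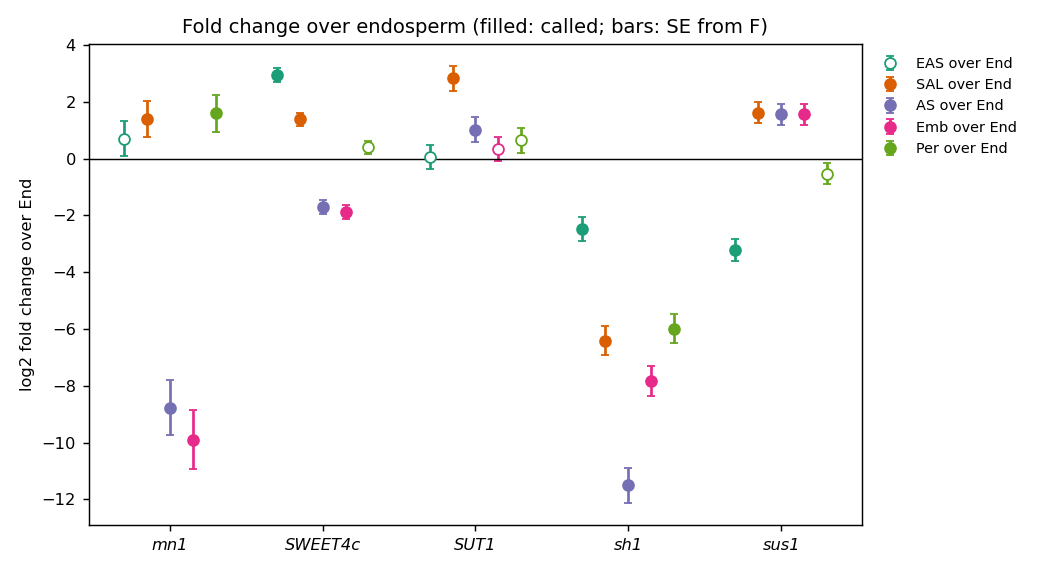
Fitted log2 fold change over End (vertical axis) of the 5 genes in EAS, SAL, AS, Emb and Per, with bars of 1 SE derived from the F statistic. Filled points were called and open points were not: in EAS, SWEET4c lies at 2.95 while sh1 and sus1 lie at -2.47 and -3.22.

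sh1 was highest in End, second in EAS and lowest in AS. EAS had 6833, 3127, 3529 and 3666 CPM, and SAL had 448, 265, 329 and 77.8 CPM. AS had 6.24, 6.37, 13.0 and 7.12 CPM, and Emb had 95.4, 102, 109 and 109.7 CPM. Per had 246, 168, 665 and 425 CPM, and End had 25470, 22002, 25360 and 22142 CPM. The End libraries lay above all others and the AS libraries below all others. sh1 alone took 0.363% ± 0.129 of the reads counted in genes in EAS and 1.78% ± 0.105 in End, both before TMM scaling.

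The sh1 order was End, EAS, Per, SAL, Emb and AS, and each step but one was called. EAS, at 4289 ± 1712 CPM, was 5.54-fold lower than End at 23744 ± 1932 CPM (log2FC -2.47 with SE 0.42, edgeR’s adjusted p = 2.53e-05). EAS was 11.4-fold higher than Per at 376 ± 221 CPM (log2FC 3.51 with SE 0.44, edgeR’s adjusted p = 1.48e-07). SAL, at 280.1 ± 155 CPM, was not told apart from Per (-0.42, SE 0.40, edgeR’s adjusted p = 0.353). SAL was called 2.69-fold over Emb at 104 ± 6.63 CPM (log2FC 1.43 with SE 0.41, edgeR’s adjusted p = 0.00300), although SAL replicate 4 lay below the Emb libraries.

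Between the embryo tissues, sh1 was 12.7-fold lower in AS, at 8.17 ± 3.22 CPM, than in Emb (log2FC -3.67 with SE 0.45, edgeR’s adjusted p = 1.18e-06), and the libraries did not overlap. In AS vs End, sh1 had a log2 fold change of -11.50 (SE 0.62, edgeR’s adjusted p = 7.26e-14). Emb vs End came to -7.83 (SE 0.54), SAL vs End to -6.41 (SE 0.51) and Per vs End to -5.98 (SE 0.50).

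sus1 was highest in SAL and both embryo tissues and lowest in EAS. EAS had 76.6, 264, 38.9 and 313 CPM. SAL had 4147, 5006, 5252 and 5456 CPM, AS had 4993, 4495, 4368 and 5184 CPM, and Emb had 4674, 5065, 4388 and 4971 CPM. Per had 1045, 1125, 1003 and 1282 CPM, and End had 1431, 1968, 1391 and 1648 CPM. SAL, AS and Emb shared one range, Per and End lay below them, and every EAS library lay below every other library.

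The means in SAL (4965 ± 576 CPM), AS (4759.6 ± 391 CPM) and Emb (4774.5 ± 307 CPM) were not told apart. SAL vs AS gave a log2 fold change of 0.06 (SE 0.37, edgeR’s adjusted p = 0.884) and SAL vs Emb also 0.06 (SE 0.37, edgeR’s adjusted p = 0.891). AS vs Emb gave -0.0045 (SE 0.37). SAL was called 3.09-fold over End at 1609.5 ± 264 CPM (log2FC 1.63 with SE 0.38, edgeR’s adjusted p = 0.000494), AS 2.96-fold and Emb 2.97-fold. Per, at 1114 ± 123 CPM, was not called against End (-0.53, SE 0.37, edgeR’s adjusted p = 0.185). The Per and End libraries did not overlap, and a fit of these 2 tissues alone gave -0.59 (SE 0.14, edgeR’s adjusted p = 0.00216), short of 2-fold. The order of these last 2 tissues turns on the scaling: by total counts without scaling factors Per had 1275 CPM and End 1210.1 CPM.

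In EAS, sus1 averaged 173 ± 136 CPM, or 218 CPM without EAS replicate 3. It was called 9.29-fold lower than in End (log2FC -3.22 with SE 0.40, edgeR’s adjusted p = 3.54e-07), 6.43-fold lower than in Per and 28.7-fold lower than in SAL. Against AS and Emb it was 27.5-fold and 27.6-fold lower. Without EAS replicate 3 the log2 fold change EAS vs End was -2.885, that of EAS vs Per -2.35, that of EAS vs SAL -4.51, and those of EAS vs AS and EAS vs Emb both -4.45. The EAS libraries fell into a lower pair, replicates 1 and 3, and a higher pair, replicates 2 and 4. A set of 78 features, called at least 8-fold higher in SAL than in each other tissue in these same libraries, took 0.00348%, 0.00747%, 0.00454% and 0.00773% of the gene reads in EAS replicates 1 to 4. In the SAL libraries the set took 0.0951% to 0.121% and in the End libraries 0.00451% to 0.00737%. The higher pair in sus1 was thus also the higher pair in this set. The same held for a set of 192 features made likewise for Emb. It took 0.00133%, 0.00188%, 0.00169% and 0.00205% in EAS replicates 1 to 4. In the Emb libraries this set took 0.212% to 0.230% and in the End libraries 0.000692% to 0.000956%. In the sets made likewise for EAS, Per and End, replicates 2 and 4 were not the higher pair, and no feature met the rule for AS. The part of any set in the sus1 level was not tested.

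The balance between both sucrose synthases can be compared across tissues without transcript lengths, as the ratio of sh1 to sus1 reads in the same library. The ratio was 89.2, 11.8, 90.7 and 11.7 in EAS and 17.8, 11.2, 18.2 and 13.4 in End, so sh1 gave most of the reads in both, and the EAS and End ranges overlapped. It was 0.108, 0.0529, 0.0627 and 0.0143 in SAL, and 0.236, 0.149, 0.663 and 0.331 in Per. In AS it was 0.00125, 0.00142, 0.00297 and 0.00137, and in Emb 0.0204, 0.0202, 0.0248 and 0.0221. The ratio was thus above 1 in every EAS and End library and below 1 in every other library, and all AS libraries lay below all Emb libraries. On the log2 scale the EAS mean was 5.02 ± 1.69, the SAL mean -4.39 ± 1.24, the AS mean -9.25 ± 0.58, the Emb mean -5.52 ± 0.14, the Per mean -1.75 ± 0.91 and the End mean 3.89 ± 0.34 (SD, n = 4). Without EAS replicate 3 the EAS mean was 4.53. No test was made of these ratios.

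**Figure D3:**
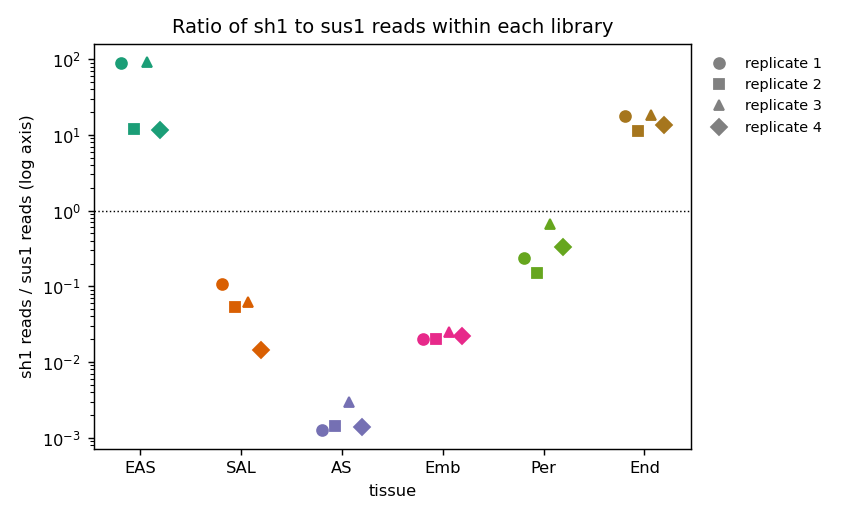
Ratio of sh1 to sus1 reads in each library (vertical log axis) by tissue, with a marker per replicate and a dotted line at equal reads. The EAS libraries fall at about 12 and about 90 and the End libraries between 11.2 and 18.2, while every SAL, AS, Emb and Per library lies below 1.

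From lowest to highest tissue mean, the summed share of both sucrose synthases spanned a smaller fold than the share of each. For sus1 this held only with EAS, where its mean was 0.0150% of gene reads. Outside EAS the sus1 means ran from 0.121% in End to 0.597% in SAL, a smaller fold than that of the sum. Together both sucrose synthases took 0.378% ± 0.123 of gene reads in EAS, 0.630% ± 0.0576 in SAL and 0.492% ± 0.0384 in AS. The share was 0.536% ± 0.0330 in Emb, 0.170% ± 0.0241 in Per and 1.90% ± 0.0881 in End. AS and Emb thus held similar shares, nearly all from sus1, and differed in the small part from sh1. That part was 0.125% to 0.296% of the combined reads in AS and 1.98% to 2.42% in Emb.

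Set side by side, the RNA levels of the 5 genes differed between the tissues in different ways. In EAS vs End, 3 of the 5 genes were called (SWEET4c higher, sh1 and sus1 lower), where 24.7% of all tested features were. In SAL vs End all 5 were called against 41.1% of features, 4 higher and sh1 lower. In AS vs End all 5 were called against 50.2% of features, SUT1 and sus1 higher and mn1, SWEET4c and sh1 lower. In Emb vs End, 4 were called against 50.1%, of which sus1 alone was higher. In Per vs End, 2 were called against 49.4%, mn1 higher and sh1 lower, a share near the background. These counts include the fragile calls of mn1 in SAL vs End and Per vs End and of SUT1 in AS vs End.

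Between the tissues on either side of the scutellum border, EAS vs AS, 4 of the 5 genes were called against 52.8% of features: mn1, SWEET4c and sh1 higher in EAS and sus1 lower. EAS vs SAL had 4 calls against 43.5%, with SWEET4c and sh1 higher and SUT1 and sus1 lower in EAS. In AS vs Emb sh1 alone was called, 1 of 5, a share near the background of 12.5% of features. In SAL vs Per 2 were called against 32.6%, SUT1 and sus1, both higher in SAL, a share near the background. SAL vs AS and SAL vs Emb had 4 calls each, all higher in SAL, against 44.5% and 44.2% of features, with sus1 not called in either. AS vs Per and Emb vs Per also had 4 each, against 49.7% and 51.1%, with sus1 higher in the embryo tissue, mn1, SWEET4c and sh1 lower, and SUT1 not called. EAS vs Emb had the same 4 calls as EAS vs AS, against 53.9%, and EAS vs Per had 3 against 50.3%, with SWEET4c and sh1 higher and sus1 lower in EAS, also a share near the background. By gene, sh1 was called in 14 of the 15 tissue pairs, SWEET4c in 12, sus1 in 11, mn1 in 10 and SUT1 in 6. The counts of mn1 and SUT1 include their fragile calls. Over these pairs the share of all features called ran from 12.5% in AS vs Emb to 53.9% in EAS vs Emb. The number of pairs per feature was not counted for the other features, so these counts have no background of their own.

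The spread across tissues was set beside that of the 17226 features with a mean of at least 10 CPM in their highest tissue. The highest tissue mean over the lowest, after adding 0.1 CPM to both, was a log2 ratio of 11.49 for sh1 (End over AS) and 10.90 for mn1 (Per over Emb). These were larger than in 99.7% and 99.5% of the features. sus1 (SAL over EAS) with 4.84 and SWEET4c (EAS over Emb) with 4.82 were each larger than 84.8%. SUT1 (SAL over End) with 2.82 was larger than 70.6%, and the median feature had 1.70.

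Within Per, SAL, EAS and End, some of the genes shared an order over the libraries, though most pairs of genes in a tissue did not. In AS and Emb each gene had an order of its own. In Per, mn1, SWEET4c and SUT1 were all lowest in replicate 2, next lowest in replicate 3 and higher in replicates 1 and 4. In SAL, mn1 and SWEET4c both ran, low to high, through replicates 2, 3, 1 and 4, and SUT1 and sus1 both through replicates 1, 2, 3 and 4. In EAS, mn1 and SUT1 shared the order 3, 4, 1 and 2, while SWEET4c was highest in replicate 3. In End, mn1, SWEET4c, SUT1 and sh1 were all highest in replicate 1. SWEET4c and sh1 shared the End order 2, 4, 3 and 1, low to high, while mn1 and SUT1 each had another. Like mn1, SWEET4c and SUT1, sh1 was lowest in Per replicate 2. However, sh1 was also lowest in SAL replicate 4, where the other 4 genes were highest. No test was made of these orders.

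**Figure D4:**
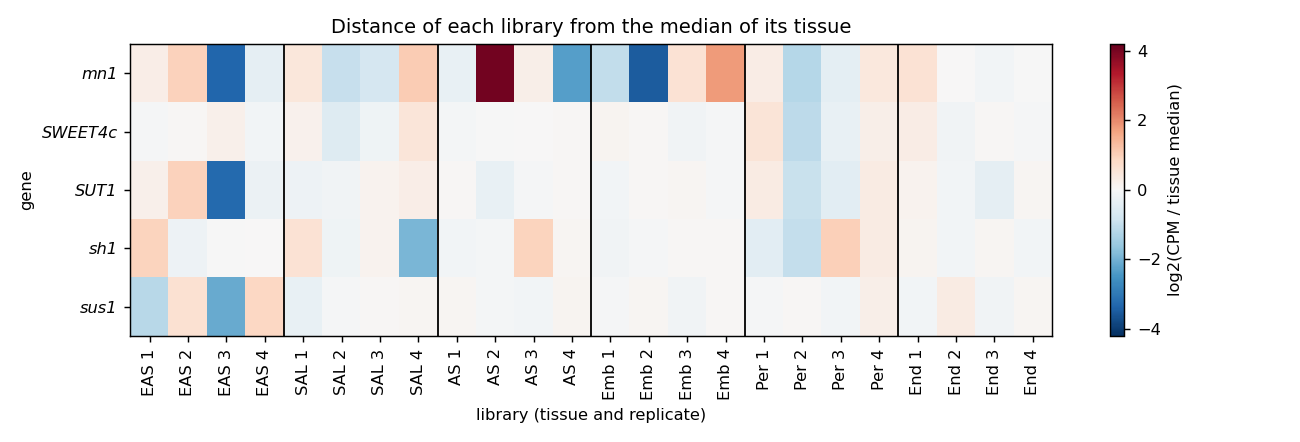
log2 of CPM over the median of the same tissue (colour) for the 5 genes (rows) in the 24 libraries (columns, by tissue and replicate). EAS replicate 3 is low in mn1 (-3.34), SUT1 (-3.27) and sus1 (-2.13), and AS replicate 2 is high in mn1 (4.07 from 85 reads, the other 3 AS libraries having 1 to 6).

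The features most like each gene were taken as the 2 with the highest Pearson correlation over the 24 libraries on log2(CPM + 1), among 17221 other features with at least 10 CPM in their highest tissue. The libraries share tissues, so these values describe likeness between tissues more than between single libraries. For mn1 they were Zm00001d007444 (r = 0.997) and Zm00001d019030 (r = 0.996), and 404 features reached an r of 0.9. Zm00001d007444 had a mean of 63.6 CPM in EAS, 68.4 CPM in SAL, 87.1 CPM in Per and 38.6 CPM in End, and it too was near absent from Emb, at 0.0815 CPM. For SWEET4c they were Zm00001d032750 (r = 0.982) and Zm00001d023950 (r = 0.970), with 290 features at 0.9 or more. Both had their highest mean in EAS, at 28.8 and 36.4 CPM.

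For sh1 the closest features were Zm00001d045180 (r = 0.972) and Zm00001d046558 (r = 0.969), with 371 at 0.9 or more, both highest in End. Zm00001d045180 spanned a far narrower range, 10.1 CPM in AS and 29.4 CPM in End, since the correlation takes no account of size. For sus1 they were Zm00001d039994 (r = 0.979) and Zm00001d006364 (r = 0.975), with 141 at 0.9 or more and means of 7.52 and 1.56 CPM in EAS, their lowest tissue. SUT1 had the fewest close features, Zm00001d053143 (r = 0.919) being the only one at 0.9 or more and Zm00001d039647 (r = 0.898) the next. Among the 5 genes themselves, mn1 and SWEET4c were the closest pair (r = 0.775) and SWEET4c and sus1 the most opposed (r = -0.734).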

How the data were processed

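Each of the deposited files holds 1 library as raw whole-number counts of reads per gene, without normalisation, per the file contents. The last 5 rows are summary rows of the kind htseq-count writes and were left out. TopHat2, Bowtie2 and the build B73 RefGen_v4 are named in the submitters' processing notes. Versions and counter settings: not given in the sources used here. Per the labels' protocols, the RNA was selected for poly(A) and sequenced paired-end without strand, so reads of overlapping antisense genes cannot be told apart. Alignment records without a unique position (7.81% to 16.2% of all records) were not counted to genes, so close paralogs, such as those of SWEET4c, can lose reads. The share differed by tissue: 13.8% to 16.2% in End, 11.6% to 13.8% in EAS and 10.5% to 11.7% in SAL. It was 7.81% to 8.73% in AS, Emb and Per. Its part in the tissue differences was not tested.

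The tests used edgeR 4.0.16 in R 4.3.3: filterByExpr by tissue (minimum count 10, 26543 features kept), TMM, and glmQLFTest on a model with tissue as its term over 24 libraries. P-values were adjusted by Benjamini-Hochberg within each of 15 tissue pairs. The code was tested on simulated data. The design text calls the replicates biological, but nothing says what each pooled, so the p-values speak only of the spread between these libraries, which may be technical. No libraries of a tissue were identical (chi-square per degree of freedom 7.11 or more).

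The labels tie replicate numbers to harvest days, with the exceptions given above. Deviations from the tissue means correlated at 0.0891 on average over 60 same-numbered pairs of libraries and at -0.0298 over 180 differently numbered pairs. The replicate block is given where it changed a call.

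The 5 genes, the rule for features most like them (2 per gene) and the tests were chosen with earlier results of these data known. The 4-fold count of departing features and the sets of features higher in a single tissue were added after the values were seen. Of 41614 gene identifiers, 0 matched the gene table, so the pathway and marker lists drawn up by symbol could not be used. Alternatives were RLE scaling, DESeq2 1.42.0, no filter, 1 CPM in 12 libraries, fits of 2 tissues, the replicate block and leaving out each library.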

Additional observations from a re-analysis of the deposited data

Results flagged for a closer look

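In 30 sets of 4 libraries (5 genes in 6 tissues), the highest or lowest library was set against the other 3. Dixon's ratio of gap to range was taken on CPM without logs, at its 95% critical value. Chance passes that value in about 1 of 20 sets if the values are normally distributed, which was not checked. There were 4 such libraries, each the highest of its tissue. mn1 in AS replicate 2 had 1.69 CPM, against 0.0202 to 0.120 CPM in the other AS libraries (ratio 0.940). mn1 in End replicate 1 had 289 CPM, against 176 to 193 CPM in the other End libraries (ratio 0.850). sh1 in EAS replicate 1 had 6833 CPM, against 3127 to 3666 CPM in the other EAS libraries (ratio 0.855). sh1 in AS replicate 3 had 13.0 CPM, against 6.24 to 7.12 CPM in the other AS libraries (ratio 0.869). The low values of EAS replicate 3 did not pass this rule. Without logs, a low value passes only where the other 3 lie close together, so the rule says little about low libraries.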

How the results depend on the processing

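Over the 75 fold changes (5 genes in 15 tissue pairs), no called value changed sign under any alternative run. With 1 CPM in 12 libraries all 75 kept their side of the threshold, as did all 74 that fits of the 2 tissues alone gave; mn1 in AS vs Emb had no value there, having failed the low-count filter. DESeq2 ended the calls of mn1 in SAL vs End (1.35) and Per vs End (1.58) and of SUT1 in AS vs End (0.96), RLE scaling those of mn1 in SAL vs End (1.35) and SUT1 in AS vs End (0.96), and the unfiltered fit that of mn1 in SAL vs End (1.40). Adjusted p over all alternatives ran between 0.0151 and 0.207 for mn1 in SAL vs End and between 0.00118 and 0.124 for Per vs End. The replicate block ended the call of mn1 in SAL vs End (1.29), made those of SUT1 in EAS vs AS (-1.04) and SWEET4c in SAL vs Per (1.01), and changed no other call. Of 600 values with 1 library left out, 15 lost and 7 gained a call, within 6 results. Their ranges were 0.95 to 1.65 for mn1 in SAL vs End, 1.36 to 1.83 for mn1 in Per vs End, 0.93 to 1.10 for SUT1 in AS vs End, -1.497 to -0.59 for SUT1 in EAS vs AS, -1.11 to -0.21 for SUT1 in EAS vs Per and 0.75 to 1.24 for SWEET4c in SAL vs Per. The causes were not tested.

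The number of called features fell by over 1.5 times with 1 CPM in 12 libraries, which tests fewer features, in 11 pairs: 7583 in EAS vs SAL (otherwise 11548), 8836 in EAS vs Per (otherwise 13361), 4159 in EAS vs End (otherwise 6546), 6921 in SAL vs AS (otherwise 11804), 6873 in SAL vs Emb (otherwise 11720), 4991 in SAL vs Per (otherwise 8648), 7255 in SAL vs End (otherwise 10914), 1562 in AS vs Emb (otherwise 3316), 8298 in AS vs Per (otherwise 13201), 8630 in Emb vs Per (otherwise 13565) and 8816 in Emb vs End (otherwise 13296). CPM by total counts lay 0.42 lower on the log2 scale than by TMM in End, 0.23 lower in EAS, 0.26 higher in SAL, 0.20 higher in Per and 0.14 higher in Emb.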
